A study of Homo sapiens with 6 samples.

Results

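The genes for major histocompatibility complex (MHC) class I and for loading it with peptide were followed in RD cells after knockdown of TAK1. RD is an established cell line from an embryonal rhabdomyosarcoma, a tumor with features of skeletal muscle precursors. TAK1, encoded by MAP3K7, is a kinase upstream of the NF-κB and MAP kinase pathways. Poly(A) RNA was sequenced from 3 samples of RD cells carrying a lentiviral pLKO.1 vector with a scrambled short hairpin RNA (shRNA) and from 3 samples carrying the same vector with TAK1 shRNA 1. RD is 1 cell line and 1 hairpin was sequenced, so that effects of TAK1 loss and of this hairpin cannot be told apart. The labels do not say whether the 3 samples of a group were separate cultures, and p-values therefore measure the spread between these samples, which may be technical. The members were taken by name: the heavy chains HLA-B, HLA-C, HLA-E and HLA-F, the light chain B2M, the peptide transporter TAP1 and TAP2, the loading chaperone TAPBP and the transactivator NLRC5. These are 9 of the 58735 rows of the count table, and other heavy chain genes were not analysed here. HLA-F had too few counts for edgeR's default filter, and the other 8 members were tested.

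A class I molecule on the cell surface holds a short peptide from inside the cell and shows it to cytotoxic T cells and natural killer cells. Proteasomes cut the peptides, TAP1 and TAP2 carry them into the endoplasmic reticulum, and tapasin, the product of TAPBP, holds the empty heavy chain and its light chain at the transporter until a peptide binds. NLRC5 drives the class I promoters through RFX, CREB/ATF and NF-Y proteins bound to an upstream module, beside sites for NF-κB and for interferon regulatory factors (IRF). Many tumors carry little class I, and interferon raises all parts of this pathway.

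The promoter sequences are given first because the members differ in which motifs, as searched here, they match. The RefSeq promoter table (GRCh38.p14) gave windows from 250 bases before to 50 bases after the annotated start for 7 of the 9 members, all but HLA-E and NLRC5. Motifs were sought on both strands in windows of 300 bases. The IRF core, GAAANNGAA, was found in 5 of the 7 members (HLA-F, B2M, TAP1, TAP2 and TAPBP) and in 8.11% of all 35116 windows. The run tttcacttc in HLA-B and HLA-C does not match it and was not counted. A κB motif, GGGNNTTCC, was found in 3 members (HLA-B, B2M and TAPBP) and in 6.58% of all windows. Longer runs, such as gggactttcc in TAP1 and gggaaagtccc in B2M, do not match this motif and were not counted. The X2 box core TGACG was present in HLA-B, HLA-C, B2M and TAP2 (24.6% of all windows) and the Y box CCAAT, bound by NF-Y, in HLA-B, HLA-C, HLA-F, B2M and TAP1 (34.6%). The X1 box core as searched, AGCAAC, had 0 matches in the 7 members and was in 12.8% of all windows. A match is a run of letters and does not show that a factor binds there. The lack of a match does not show that a site is absent, since variants in letters or spacing were not sought.

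The 30 bases around the κB matches of HLA-B, which was not called, and TAPBP, which rose, are set beside the same stretch of HLA-C, where the motif as searched is not matched. The κB match of B2M, which fell, starts 4 bases before the annotated start, and its stretch is not printed. The matches are in capitals, and all sequences run 5′ to 3′ on the strand of the gene.
HLA-B (chr6:31357337-31357366, minus strand, 187 to 158 bases before the start): gcgcagcgttGGGGATTCCccactcccctg
HLA-C (chr6:31272250-31272279, minus strand, 187 to 158 bases before the start): ggaggcgccgcgttggggattctccactcc
TAPBP (chr6:33314111-33314140, minus strand, 62 to 33 bases before the start): cagagcgGGGATTTCCaccgcccctcatgc

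The IRF matches of the light chain, of the loading genes and of the heavy chain HLA-F come next, since these genes include the 2 members with the smallest adjusted p-values. Capitals mark the IRF core on either strand, and in TAPBP, B2M and TAP1 a pair of matches overlaps in a single run.
TAPBP (chr6:33314079-33314108, minus strand): ccctttggagGAAAGTGAAAGTGAAaggag
B2M (chr15:44711367-44711396, plus strand): ctctaaGAAAAGGAAACTGAAaacgggaaa
TAP1 (chr6:32853815-32853844, minus strand): ggccgctTTCGATTTCGCTTTCccctaaat
TAP2 (chr6:32838775-32838804, minus strand): gggaagcGAAAGCGAAagctgcccgagccc
HLA-F (chr6:29723272-29723301, plus strand): ccagagtTTCTCTTTCtctcccaacccgtg

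The heavy chain promoters share their Y boxes close to the start, shown here with CCAAT and its reverse complement in capitals.
HLA-B (chr6:31357231-31357260, minus strand): ATTGGgtATTGGatatctagagaagCCAAT
HLA-C (chr6:31272144-31272173, minus strand): cATTGGgtgtcgggttctagagaagCCAAT
HLA-F (chr6:29723352-29723381, plus strand): ATTGGgcgtcgcgtttctagagaagCCAAT

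**Figure D1:**
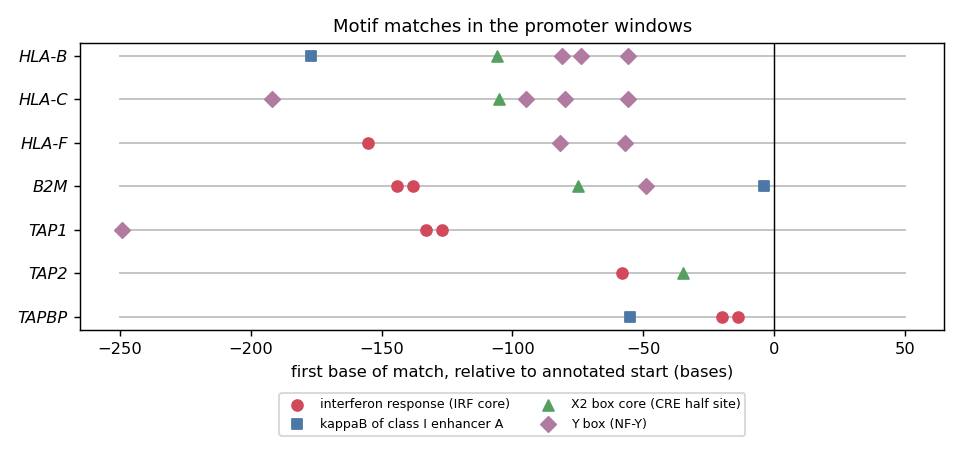
Motif matches in the promoter windows of the 7 members that have one, with the distance of the first base of each match from the annotated start (in bases) on the x axis and 1 line per gene. Of TAP1, which has 2 windows, the one whose start lies farther upstream is drawn. The Y box nearest to the start lies 56 bases before it in HLA-B and HLA-C and 57 in HLA-F, HLA-C holds 2 more distant Y boxes at 192 and 95 bases, and the IRF cores lie from 155 bases (HLA-F) to 14 bases (TAPBP) before the start.

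The samples held 28839898 to 34469323 counts on genes. Values are given in CPM, the count scaled to a common library size with factors from the trimmed mean of M-values (TMM), and changes as log2 fold changes of TAK1 shRNA against scrambled shRNA, in which 1 unit is a doubling. Calls were made at an adjusted p under 0.05 (edgeR quasi-likelihood test, adjusted by the Benjamini-Hochberg method over all 15935 tested genes), provided that the log2 fold change was 0.25 or more in size. The targeted gene, MAP3K7, stood at 77.9, 76.5 and 77.6 CPM in the scrambled samples and at 30.5, 33.6 and 29.9 CPM in the TAK1 shRNA samples. Of 10 tested myoblast markers 4 were higher (ACTC1, MYMK, MYOD1 and MYOG) and 1 lower (CHRNA1), against 11.8% and 11.3% of all tested genes. The list's 12 genes summed to 2998 to 3006 CPM in scrambled and 3097 to 3309 CPM in TAK1 shRNA samples. The 10 leukocyte markers summed to 0.519 to 0.921 CPM and 0.424 to 0.679 CPM, 3 of them were at 0 in every sample, and 0 passed the filter. The 6 endothelial markers summed to 8.63 to 9.43 CPM and 18.6 to 22.8 CPM, of which 2 were tested, CLDN5 being called higher (log2 fold change 1.67) and TEK not called (−0.49, groups not overlapping). The 7 epithelial markers summed to 56.9 to 63.0 CPM and 27.7 to 31.2 CPM, of which 2 were tested, KRT18 being called lower (log2 fold change −1.09) and KRT8 not called (−0.48). The part of these shifts in the results for class I genes was not tested.

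The class I genes did not move as a block after TAK1 knockdown. TAPBP and NLRC5 were upregulated, B2M was downregulated, and the other 5 tested members were not called. The 2 upregulated genes are 2 of 8 tested, where 11.8% of all tested genes were called higher, and the 1 downregulated gene is 1 of 8, where 11.3% of all tested genes were called lower. The median log2 fold change of the 8 tested members was 0.037, with 4 above and 4 below 0, and that of all tested genes was 0.018. The 2 groups of samples did not overlap for TAP1, TAPBP and NLRC5, which were higher with TAK1 shRNA (3 of 8, against 21.6% of all tested genes), nor for HLA-C and B2M, which were lower (2 of 8, against 22.2%).

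**Figure D2:**
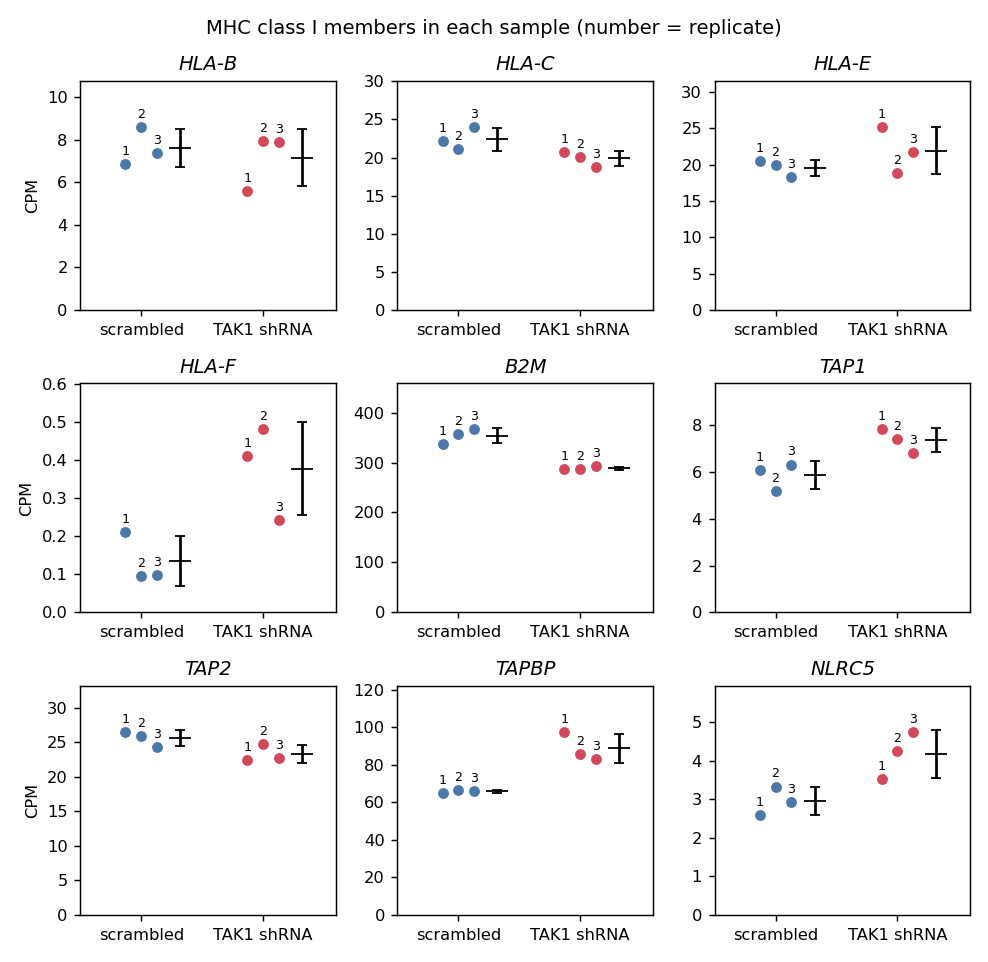
CPM of each of the 9 members, with 1 point per sample, the replicate number above it and the mean ± SD of the group (n = 3) beside it; every y axis starts at 0. The points of TAPBP, NLRC5, TAP1 and HLA-F lie higher in all 3 TAK1 shRNA samples, those of B2M and HLA-C lie lower, and those of HLA-B, HLA-E and TAP2 overlap.

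TAPBP showed the clearest rise among the members. It encodes tapasin, which bridges the peptide transporter and the empty class I molecule and favours the binding of stable peptides. TAPBP (ENSG00000231925.14, chr6:33299694-33314284, minus strand) reached 65.1, 66.4 and 66.2 CPM in replicates 1, 2 and 3 of the scrambled samples and 97.6, 85.9 and 83.1 CPM in those of the TAK1 shRNA samples. The scrambled samples lay close together, and the lowest TAK1 shRNA sample was above all of them. The means were 65.9 ± 0.692 and 88.9 ± 7.71 CPM (SD, n = 3), or 34.8% more in the fitted model, which on the log2 scale is 0.43 (SE 0.059, 95% interval 0.31 to 0.55, Benjamini-Hochberg adjusted p = 2.86e-06 in the edgeR quasi-likelihood test). The two-sided exact permutation test on the 6 CPM values gave p = 0.1, the smallest that 3 against 3 allows, and so it did for every other member whose groups did not overlap. Replicate 1 of TAK1 shRNA stood above the other 2 in its group, and without it the log2 fold change was 0.36. An annotated gene on the opposite strand (ENSG00000289100) overlaps exons of TAPBP, and the sources used here do not say whether reads were counted by strand.

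NLRC5 also rose, at a far lower level. Its product is the transactivator of class I genes and of their partners, including B2M and the TAP genes. NLRC5 (ENSG00000140853.17, chr16:56989485-57083531, plus strand) stood at 2.60, 3.33 and 2.92 CPM in the scrambled and at 3.52, 4.25 and 4.76 CPM in the TAK1 shRNA samples. The groups did not overlap, but the highest scrambled and the lowest TAK1 shRNA sample were close to each other. The means of 2.95 ± 0.367 and 4.17 ± 0.620 CPM (SD, n = 3) differed by a log2 fold change of 0.50 (SE 0.175, 95% interval 0.14 to 0.86, Benjamini-Hochberg adjusted p = 0.0297 in the edgeR quasi-likelihood test). The value rests on 269 counts over the scrambled samples (exact 95% Poisson interval 238 to 303) and 410 over the TAK1 shRNA samples (371 to 452), and these intervals cover counting error only. The call was lost without any 1 of 4 samples: at an adjusted p of 0.112 without scrambled replicate 1, 0.0773 without scrambled replicate 3, 0.0578 without TAK1 shRNA replicate 2 and 0.138 without TAK1 shRNA replicate 3, while the log2 fold change stayed at 0.39 or more.

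B2M moved the other way. It encodes beta-2 microglobulin, the invariant light chain without which most class I molecules do not reach the surface. B2M (ENSG00000166710.23, chr15:44711358-44718851, plus strand) was at 337, 357 and 366 CPM in the scrambled samples and at 286, 286 and 292 CPM in the TAK1 shRNA samples. All TAK1 shRNA values lay below all scrambled values and within a narrow band. The means fell from 353 ± 15.1 to 288 ± 3.53 CPM (SD, n = 3), by 0.29 on the log2 scale (SE 0.045, 95% interval −0.39 to −0.20) or by 18.4% (Benjamini-Hochberg adjusted p = 1.15e-05 in the edgeR quasi-likelihood test). With scaling by library size alone the log2 fold change was −0.246, which is just short of the fold threshold, at an adjusted p of 0.000123 by the same test. In bulk RNA, fewer cells that express a gene and less RNA per cell cannot be told apart.

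None of the tested heavy chains was called. HLA-C and HLA-B encode classical heavy chains that present peptide to T cells, and HLA-E encodes a nonclassical chain that is read by receptors of natural killer cells. HLA-C (ENSG00000204525.18, chr6:31268749-31272130, minus strand) was at 22.1, 21.1 and 24.0 CPM in scrambled and at 20.8, 20.1 and 18.8 CPM in TAK1 shRNA samples. Its groups did not overlap, by a narrow margin. The log2 fold change was −0.17 (SE 0.081, 95% interval −0.34 to −0.0066), and the Benjamini-Hochberg adjusted p of the edgeR quasi-likelihood test was 0.105. HLA-B (ENSG00000234745.14, chr6:31353872-31367067, minus strand) was at 6.86, 8.60 and 7.36 CPM in scrambled and at 5.61, 7.93 and 7.91 CPM in TAK1 shRNA samples. These groups overlapped, with replicate 1 the lowest in both. Its log2 fold change of −0.086 had an SE of 0.138 and a 95% interval of −0.37 to 0.20 (adjusted p = 0.685, same test), and it was 0.056 without TAK1 shRNA replicate 1 and 0.011 without scrambled replicate 2. HLA-E (ENSG00000204592.9, chr6:30489509-30494194, plus strand) was at 20.4, 20.0 and 18.3 CPM in scrambled and at 25.2, 18.8 and 21.7 CPM in TAK1 shRNA samples. The lowest TAK1 shRNA value lay inside the scrambled range, and the other 2 lay above it. The log2 fold change was 0.16 (SE 0.093, 95% interval −0.031 to 0.35, adjusted p = 0.198 by the same test), and without TAK1 shRNA replicate 2 it was 0.26 with an adjusted p of 0.0278, which would be a call.

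HLA-F, a nonclassical heavy chain that can reach the surface without peptide, was near the limit of this depth. HLA-F (ENSG00000204642.14, chr6:29722775-29738528, plus strand) had 6, 3 and 3 counts in the scrambled and 12, 17 and 8 counts in the TAK1 shRNA samples. Each TAK1 shRNA sample held more than each scrambled sample. The sums were 12 (exact 95% Poisson interval 6.20 to 21.0) and 37 (26.1 to 51.0), which covers counting error only. Without any filter on low counts, the edgeR quasi-likelihood test gave a log2 fold change of 1.47 with an unadjusted p of 0.0404 and an adjusted p of 0.173 over 29336 genes, which is no call. HLA-F shares exon positions with HLA-F-AS1, RPL23AP1 and another annotated gene on the opposite strand. HLA-B overlaps MIR6891 and DHFRP2 on its own strand, and ENSG00000271581 and ENSG00000285647 on the opposite strand. Heavy chain genes are near-identical over long stretches and differ between people. Their counts are therefore uncertain where the handling of reads with several matches is not given in the sources used here.

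Neither subunit of the transporter was called, and their fold changes had opposite signs. TAP1 and TAP2 form a single channel that uses ATP to move peptides into the endoplasmic reticulum. TAP1 (ENSG00000168394.13, chr6:32845209-32853816, minus strand) was at 6.08, 5.21 and 6.32 CPM in scrambled and at 7.83, 7.42 and 6.82 CPM in TAK1 shRNA samples. All TAK1 shRNA values were above all scrambled values. The means of 5.87 ± 0.588 and 7.35 ± 0.511 CPM (SD, n = 3) gave a log2 fold change of 0.32 (SE 0.128, 95% interval 0.060 to 0.59), which narrowly missed the threshold at a Benjamini-Hochberg adjusted p of 0.0539 (edgeR quasi-likelihood test). TAP1 passed in 4 of 14 alternative settings, all by the same test. It did so with upper-quartile scaling (log2 fold change 0.34, adjusted p = 0.0422) and with library size alone (0.37, adjusted p = 0.0274). It also passed without TAK1 shRNA replicate 3 (0.37, adjusted p = 0.049) and with a replicate block (0.33, adjusted p = 0.0423). In the other 10 it was not called, with an adjusted p of 0.0835 in DESeq2 and 0.064 in limma voom. Without scrambled replicate 2 the edgeR test gave a log2 fold change of 0.24 and an adjusted p of 0.244. TAP2 (ENSG00000204267.19, chr6:32821833-32838739, minus strand) was at 26.5, 25.9 and 24.3 CPM in scrambled and at 22.4, 24.7 and 22.7 CPM in TAK1 shRNA samples. Its groups overlapped, and the log2 fold change of −0.13 (SE 0.076, 95% interval −0.29 to 0.024) was not called (adjusted p = 0.193, same test). TAP1 shares exon positions with PSMB8-AS1 on the opposite strand, and TAP2 with ENSG00000250264 on the same strand.

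**Figure D3:**
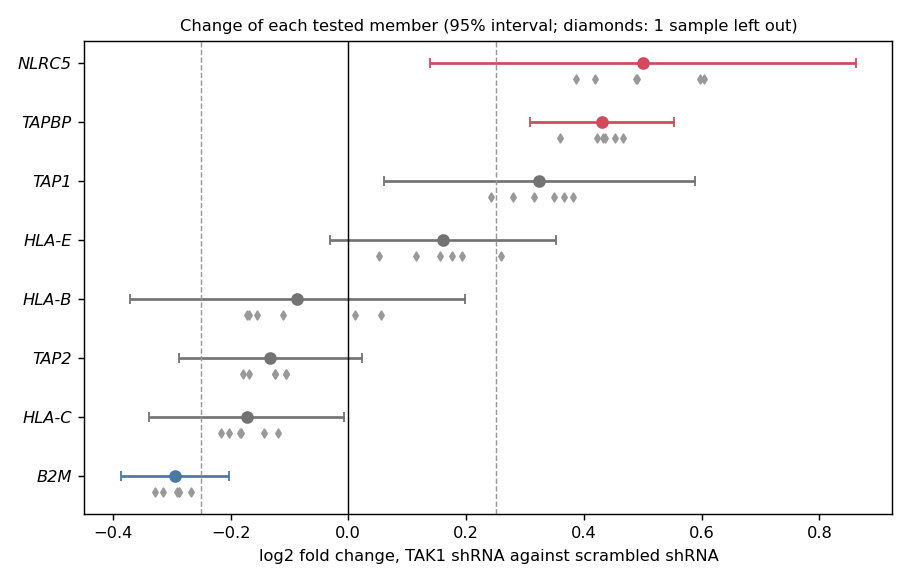
Log2 fold change of the 8 tested members (x axis, TAK1 shRNA against scrambled shRNA) with 95% intervals from edgeR; red is called higher, blue called lower and grey not called, the dashed lines mark ±0.25 and diamonds show the value with each of the 6 samples left out. TAPBP and B2M keep their side of 0 by a wide margin, while the diamonds of HLA-B lie on both sides of it.

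To set levels of different genes side by side, CPM was divided by the length of the canonical transcript in kilobases (GENCODE 44). By this measure B2M was far above the rest, with a mean level of 375 ± 16.0 CPM per kilobase in the scrambled samples and 306 ± 3.74 in the TAK1 shRNA samples (SD, n = 3). TAPBP followed with 19.1 and 25.8, then HLA-C with 14.5 and 12.9, HLA-E with 7.68 and 8.61, HLA-B with 4.95 and 4.65, TAP2 with 4.53 and 4.13, TAP1 with 2.19 and 2.74, NLRC5 with 0.435 and 0.616, and HLA-F with 0.0909 and 0.255 CPM per kilobase in scrambled and TAK1 shRNA samples. The order was the same in both groups. HLA-B and TAP2 were the only neighbours whose ranges overlapped, at 4.46 to 5.60 and 4.30 to 4.70 CPM per kilobase in the scrambled samples and 3.65 to 5.16 and 3.98 to 4.38 in the TAK1 shRNA samples.

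The composition of the class I transcripts was then described within each sample. The sum of the 4 heavy chains was 27.0, 27.2 and 27.6 CPM per kilobase in the scrambled and 27.3, 25.9 and 26.0 in the TAK1 shRNA samples, and these ranges overlap. The ratio of B2M to this sum was 13.2, 13.9 and 14.1 in the scrambled and 11.1, 11.7 and 11.9 in the TAK1 shRNA samples, without overlap. B2M RNA was in large excess over these 4 heavy chains in every sample. HLA-C made up 53.2%, 50.3% and 56.4% of the heavy chain sum in the scrambled and 49.3%, 50.3% and 46.8% in the TAK1 shRNA samples, the largest share in each. HLA-E followed with 29.7%, 28.8% and 26.0% in the scrambled and 36.3%, 28.5% and 32.8% in the TAK1 shRNA samples. HLA-B gave 16.6%, 20.6% and 17.4% and then 13.4%, 19.9% and 19.8%. The shares of HLA-B, HLA-C and HLA-E overlapped between the groups.

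The same was done for the loading genes. TAPBP exceeded TAP2 in CPM per kilobase by 4.02, 4.20 and 4.46 times in the scrambled and by 7.12, 5.68 and 5.98 times in the TAK1 shRNA samples. These ranges lie apart. The ratio of TAP2 to TAP1 was 2.07, 2.36 and 1.83 in the scrambled and 1.36, 1.59 and 1.59 in the TAK1 shRNA samples, also apart. TAPBP exceeded TAP1 by 8.33, 9.92 and 8.14 times and by 9.70, 9.01 and 9.49 times, which overlap. These ratios are descriptions and were not tested.

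**Figure D4:**
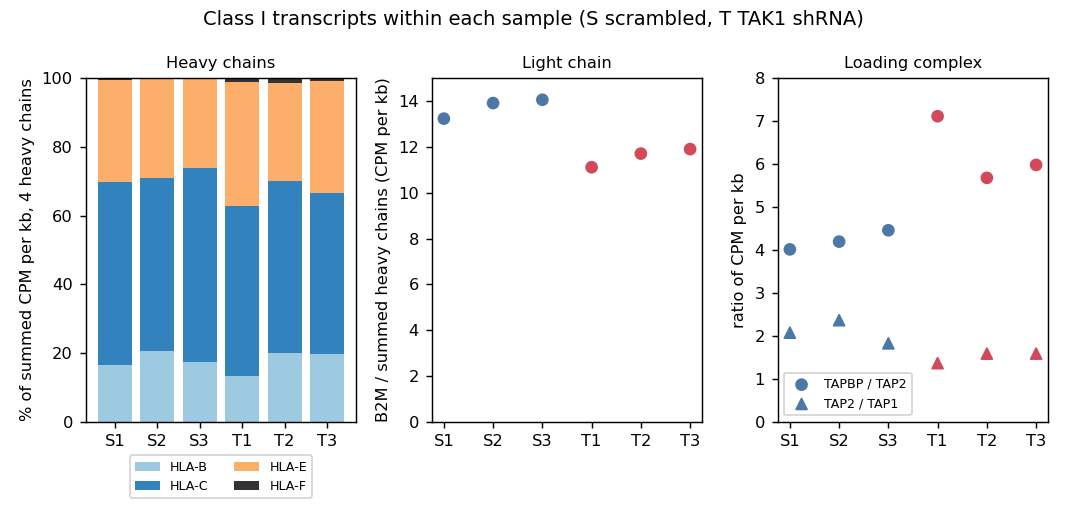
Left, share of each heavy chain in the summed CPM per kilobase of the 4 heavy chains, in percent, for each sample (S scrambled, T TAK1 shRNA). Middle and right, ratios of CPM per kilobase in each sample, with scrambled samples in blue and TAK1 shRNA samples in red; B2M over the heavy chain sum lies between 13.2 and 14.1 in scrambled and between 11.1 and 11.9 in TAK1 shRNA samples, and TAPBP over TAP2 (circles) lies higher and TAP2 over TAP1 (triangles) lower in the TAK1 shRNA samples.

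The wider pathway was read from lists of genes by role. Of all tested genes 11.8% were called higher and 11.3% lower, the shares to set beside the counts of each list. Of the 16 genes for class I folding, quality control and peptide trimming, 0 were called higher by edgeR and 4 lower, with a median log2 fold change of −0.080. DESeq2 and limma voom gave the same counts, and at an unadjusted p under 0.05 edgeR had 1 higher and 7 lower. The 4 were HSPA5, the chaperone BiP (log2 fold change −0.33), CANX, which holds new heavy chains (−0.30), LNPEP, an aminopeptidase that trims peptides for cross-presentation (−0.37), and SAR1B, a GTPase of export vesicles (−0.30). Of the 6 genes of the immunoproteasome and its activator, 0 were called higher and 1 lower, the assembly factor POMP (−0.32), with a median log2 fold change of 0.15. At an unadjusted p under 0.05 edgeR had 2 higher and 1 lower, DESeq2 called 0 higher and limma voom called 1. PSMB8 and PSMB9, immunoproteasome subunits that lie beside TAP1 and TAP2, were measured for this reason. PSMB8 was at 14.0, 16.2 and 15.7 CPM in scrambled and 18.0, 18.5 and 18.1 CPM in TAK1 shRNA samples. Its groups did not overlap, and its log2 fold change of 0.249 was just under the fold threshold (Benjamini-Hochberg adjusted p = 0.0282, edgeR quasi-likelihood test). PSMB9, whose annotated start lies 488 bases from the TAP1 start drawn above, was at 2.99, 2.00 and 2.63 CPM and at 3.11, 3.28 and 2.24 CPM, which overlap (log2 fold change 0.18, adjusted p = 0.545, same test).

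Among 17 transcription factors and coactivators of class I promoters, 3 were higher and 3 lower, where 11.8% and 11.3% of all tested genes were. The median log2 fold change was −0.059, while DESeq2 called 2 higher and 3 lower. The module bound by RFX, CREB/ATF and NF-Y proteins had members that went both ways. NFYC, a subunit of NF-Y, fell by 0.92 on the log2 scale, from 92.3 ± 4.54 to 48.9 ± 0.659 CPM (SD, n = 3, Benjamini-Hochberg adjusted p = 3.58e-12, edgeR quasi-likelihood test). NFYA (0.032, adjusted p = 0.668) and NFYB (0.026, adjusted p = 0.828), for other subunits of NF-Y, were not called by the same test. ATF1, of the CREB/ATF family, fell by 0.55, while CREB1 of the same family (−0.085, adjusted p = 0.275, same test) was not called. NFKB1, which encodes a subunit of the factor that binds κB sites, fell by 0.39, from 105.9, 99.9 and 101.6 CPM to 79.7, 78.1 and 77.2 CPM in replicates 1, 2 and 3. RFX5, the DNA-binding subunit of RFX, rose by a log2 fold change of 0.26, from 64.0, 66.8 and 59.7 CPM to 75.7, 77.2 and 74.9 CPM. CREBBP, a coactivator, rose by 0.31. CIITA, the class II relative of NLRC5, was the third gene called higher (1.57), at very low counts (4, 4 and 8 against 11, 13 and 28). Every scrambled count was below the filter's minimum of 10. CIITA was thus tested only because of its TAK1 shRNA samples, and its call cannot serve as evidence of a rise. RFXANK (0.12, adjusted p = 0.0852), RFXAP (−0.27, adjusted p = 0.163) and IRF1 (−0.06, adjusted p = 0.783) were not called by the same edgeR test.

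Interferon signalling and its target genes gave differing counts. Of 13 genes for interferon receptors and their signalling, 0 were called in either direction by edgeR, with a median log2 fold change of 0.062. IFNGR2 (−0.19, adjusted p = 0.0407) and JAK1 (0.12, adjusted p = 0.0427, both by the edgeR quasi-likelihood test) did not reach the fold threshold. DESeq2 and limma voom also called 0. Of the 25 listed interferon-induced genes 23 were tested, of which 1 was higher and 9 were lower, where 11.8% and 11.3% of all tested genes were, with a median log2 fold change of −0.20. IFIT2 fell by 1.41, from 50.3, 54.2 and 54.2 CPM to 19.2, 19.1 and 21.3 CPM. IFIT3 fell by 1.22 and IFI44 by 0.80, and ISG15 and OAS3 fell by 0.54 each, all of them antiviral genes. The 1 gene that rose was IFI44L (0.83). This list shares genes with the lists above, PSMB9 and IRF1 among them.

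As for the lists above, the shares of all tested genes were 11.8% called higher and 11.3% lower. Of 12 tested genes for the turnover or silencing of class I, 0 were higher and 1 was lower, SEL1L, an adaptor of endoplasmic reticulum associated degradation (log2 fold change −0.52). DESeq2 and limma voom gave the same counts, and 2 were higher and 4 lower at an unadjusted p under 0.05 in edgeR. Of 7 tested genes for other class I-like proteins 0 were called in either direction, with a median log2 fold change of −0.049, and 0 had an unadjusted p under 0.05 in edgeR, DESeq2 or limma voom. Of the 12 listed genes of MHC class II and its loading, 5 were tested, and 1 of these was called, CTSS, a protease that trims the invariant chain (log2 fold change 0.46). HLA-DRA, HLA-DRB1, HLA-DPA1, HLA-DQA1 and HLA-DQB1 were at 0 in every sample.

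**Figure D5:**
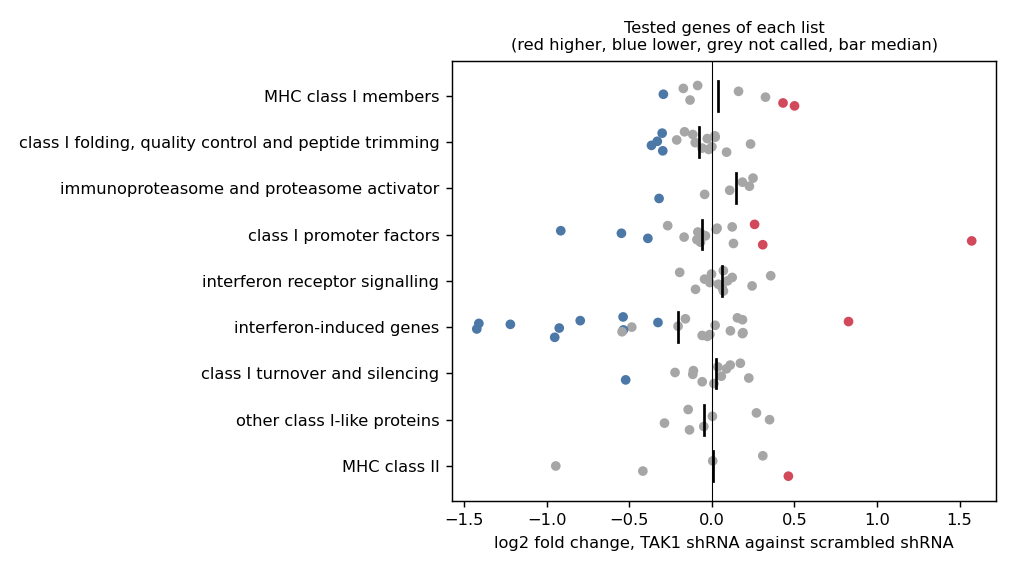
Log2 fold change (x axis, TAK1 shRNA against scrambled shRNA) of every tested gene of the members and of the pathway lists, without the cell type markers, with red for called higher, blue for called lower, grey for not called and a black bar at the median. The members lie on both sides of 0 with a median of 0.037, and the median of the interferon-induced genes is −0.20.

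The pattern most like that of TAPBP, the member with the smallest adjusted p, was sought among the 13476 tested genes that averaged 1 CPM or more. Over the 6 samples, Pearson's correlation of log2 CPM was highest for PTPRS (0.999), GRINA (0.998), RPL13A (0.997), TMEM132A (0.996) and PNPLA6 (0.996). Their log2 fold changes were 0.18, 0.29, 0.094, 0.38 and 0.36. The samples share their 2 groups and their libraries, and these correlations are descriptions.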

How the data were processed

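The authors extracted and poly(A)-selected RNA of RD cells (3 samples with scrambled shRNA, 3 with TAK1 shRNA 1), sequenced it and aligned reads to GRCh38 with STAR after CASAVA base calling. Reads per gene were deposited as raw counts without normalization. The counter, the annotation release, the use of strand and the handling of reads with several matches are not given in the sources used here. Groups came from the labels.

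Counts were compared with edgeR 4.0.16 in R 4.3.3 (default filter, TMM, quasi-likelihood test, p-values adjusted by the Benjamini-Hochberg method over 15935 genes). Calls needed a log2 fold change of 0.25 or more in size with an adjusted p under 0.05. DESeq2 1.42.0, limma 3.58.1 (voom), other scalings, fold thresholds and filters, a replicate block and the omission of each sample in turn were alternatives. All 9 members were named, and of the other lists up to 5 called genes with the smallest adjusted p, PSMB8, PSMB9, RFX5, RFXAP, RFXANK and IRF1, and 1 further gene of this rule is not reported here. IFI44L, CIITA, CREB1, NFYA, NFYB, IFNGR2, JAK1, TEK and KRT8 were named after their values were seen. The code was tested on simulated data. Total counts ran from 28839898 to 34469323 per sample. Beyond counting error, replicates varied by 5.67% (edgeR's common biological coefficient of variation), and counting error at a member's lowest count ran from 1.09% (B2M) to 57.7% (HLA-F). Gene positions and lengths came from GENCODE 44, and promoters from RefSeq. Members and lists were chosen with earlier results of these data known, and marker lists likewise.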

Additional observations from a re-analysis of the deposited data

How the results depend on the processing

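Each tested member was recomputed under 14 alternatives. Of the 112 values, 100 kept their direction and their side of the threshold, 5 lost the call, 5 gained it and 2 changed sign. TAPBP stayed called in all 14 (log2 fold change 0.36 to 0.48, adjusted p 1.52e-11 to 5.83e-05), and B2M ran from −0.33 to −0.25, losing its call with library size alone, so that 0 members were then called lower. HLA-B changed sign without scrambled replicate 2 (0.011) and without TAK1 shRNA replicate 1 (0.056), over a range of −0.17 to 0.056 when each sample was left out. NLRC5 lost its call without any of 4 samples (adjusted p 0.0147 to 0.138 over its alternatives). With each sample left out, 1 to 2 members were called higher, 1 without scrambled replicate 1 or 3. They were not always the same members. HLA-E took the place of NLRC5 without TAK1 shRNA replicate 2, and TAP1 did so without TAK1 shRNA replicate 3.

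At a fold threshold of 0.5, 1 member was called higher and 0 lower, and 735 genes were higher and 680 lower among all genes. With no fold threshold, 2569 genes were higher and 2734 lower among all genes, and 2 members were higher and 1 lower. Both follow from the threshold itself. Library size alone called 3 members and 2376 genes higher and 1404 genes lower, so that 62.9% of all calls were upward against 51.0% with TMM, and moved the median of all genes to 0.066 on the log2 scale. DESeq2 called 2 members higher and 1 lower, and 1685 genes higher and 1804 lower among all genes. The replicate block called 3 members higher, TAP1 among them (log2 fold change 0.33, adjusted p = 0.0423 by edgeR), and 1 lower, and 1942 genes higher and 1848 lower among all genes, against 1879 and 1805 without it. Same-numbered samples correlated by 0.037, 0.036 and 0.016 in their deviations from the group means. Scrambled replicates 1 and 2 correlated best with their own number, and scrambled replicate 3 with TAK1 shRNA replicate 2 (0.019). The deviations of 3 samples are tied to each other, so that these small values cannot show whether the replicate numbers pair the samples. Depth limits HLA-F, with at most 17 counts in a sample.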
